A study of Mus musculus with 13 samples.

Results

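The guanylate binding proteins (GBPs) are described here across sorted mouse splenic CD4 T cells. The family was taken as the 10 gene symbols Gbp1 to Gbp10, and all 10 were found among the 18649 genes measured by RNA-seq and passed the minimum mean level of 10. The symbols were chosen by a family list drawn up with the values of these libraries known, so levels and fold changes of the 10 genes are a description. No p-value is given for them, and where those past a threshold are counted, nothing is read from the count. Gbp11, which the list left out, is given beside them.

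The 13 libraries fall into 3 populations. The PD1hi population (3 libraries) was CD4+PD1hi and negative for the Foxp3 GFP reporter. The Treg population (5 libraries) was CD4+, negative for PD-1 and positive for the Foxp3 GFP reporter, and these are regulatory T cells. The Tconv population (5 libraries), conventional CD4 T cells, was negative for both. PD-1, the product of Pdcd1, is an inhibitory surface receptor, and Foxp3 is the lineage factor of regulatory T cells. All 3 populations were sorted from spleen with the same reporter. The sources used here give no strain, age, treatment, number of animals or pooling. Experiments numbered 3, 5 and 6 in the titles each sorted all 3 populations, and 4 libraries are repeats within an experiment. Nothing says that the experiments used separate animals, so a p-value measures only how far these samples spread, which may be technical.

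GBPs are large GTPases of the dynamin superfamily. Interferon-gamma binds its receptor, the kinases Jak1 and Jak2 carry the signal on, and transcription factors such as Irf1 induce Gbp genes in most cell types. The proteins coat vacuoles that hold intracellular pathogens, act there together with the immunity-related GTPases (IRGs), and help inflammasomes to assemble. In the mouse the genes lie in a cluster on chromosome 3 and a cluster on chromosome 5. The letters of 2 elements of interferon-responsive promoters were searched: the gamma-activated sequence (GAS), written here as TTCNNNGAA, and the interferon-stimulated response element (ISRE), to which Irf1 binds and whose core is written GAAANNGAA.

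Promoters are shown for the members whose name and identifier agree between the table and GENCODE M21 and that have a RefSeq promoter, since these are the genes whose levels are described next and the motifs are those of the interferon-gamma pathway. Each is the RefSeq window on GRCm38.p6, plus strand, from 250 bases before to 50 after the annotated start. Capitals mark GAS matches and ISRE cores, here read as TTCNNTTTC, the reverse complement of GAAANNGAA. The windows are chr3:142620413-142620712 for Gbp2, chr3:142559794-142560093 for Gbp3 and chr3:142530086-142530385 for Gbp7.
Gbp2: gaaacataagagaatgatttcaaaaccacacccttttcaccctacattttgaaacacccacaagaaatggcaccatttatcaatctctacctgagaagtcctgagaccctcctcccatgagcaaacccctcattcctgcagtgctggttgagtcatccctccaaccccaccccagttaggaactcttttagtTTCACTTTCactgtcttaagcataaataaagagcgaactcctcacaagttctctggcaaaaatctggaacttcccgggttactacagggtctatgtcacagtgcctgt
Gbp3: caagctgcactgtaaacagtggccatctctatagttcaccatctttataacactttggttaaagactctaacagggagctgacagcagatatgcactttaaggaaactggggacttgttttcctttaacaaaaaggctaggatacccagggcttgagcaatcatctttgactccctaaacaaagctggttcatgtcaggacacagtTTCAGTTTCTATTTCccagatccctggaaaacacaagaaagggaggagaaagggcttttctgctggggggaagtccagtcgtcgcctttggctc
Gbp7: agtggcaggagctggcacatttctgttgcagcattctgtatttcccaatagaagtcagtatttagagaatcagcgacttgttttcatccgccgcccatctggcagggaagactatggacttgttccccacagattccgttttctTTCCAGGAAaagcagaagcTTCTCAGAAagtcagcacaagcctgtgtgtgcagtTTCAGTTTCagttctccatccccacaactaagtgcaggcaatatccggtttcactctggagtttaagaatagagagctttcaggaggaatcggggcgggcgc
The Gbp2 window holds 1 ISRE core, which begins at position -58 from the start. The Gbp3 window holds 2 cores that overlap by 3 bases and begin at -44 and -38, while a second annotated Gbp3 start has no match. The Gbp7 window holds GAS matches at -106 and -87 and an ISRE core at -52. RefSeq also gives a Gbp5 window, with GAS matches at -245 and -52 and a core at -164, and a Gbp2b window, with a core at -136. Both strands of 32851 promoters of the same length were searched: 8.56% hold the ISRE core, 8.3% hold the GAS and 1.07% hold both. A match is a string of letters, not a shown binding site.

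**Figure D1:**
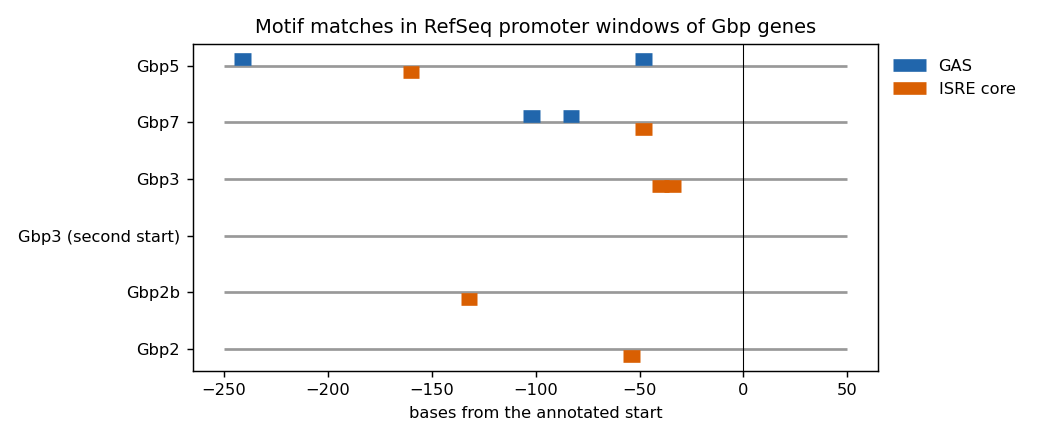
Matches to GAS (blue) and to the ISRE core (orange) in the RefSeq promoter windows of Gbp genes, by position in bases from the annotated start. Of the 6 windows, 5 hold at least 1 ISRE core, and the Gbp5 and Gbp7 windows also hold 2 GAS matches each.

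Levels are scaled counts, that is reads per gene divided by the authors' size factor of the library, and are not divided by gene length, so they are compared between populations and not between genes. Libraries held 15971126 to 24216463 reads in genes. Libraries of 1 experiment and population were averaged, so each population has 3 values (n = 3) and means are given with their SD. The sorted genes followed the labels: mean Foxp3 was 106 (PD1hi), 15889 (Treg) and 291 (Tconv), and mean Pdcd1 was 37372, 1955 and 1132 in the same order. Fold changes are differences of log2(scaled count + 1) with their standard error (SE) from limma, and a gene passed the threshold at a Benjamini-Hochberg adjusted p under 0.05 over 14177 genes.

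Of the 13 libraries, 2 stood apart. In the second Treg library of experiment 3 all 10 Gbp genes were below the first library of that experiment, by a median of -0.68 on the log2 scale (range -1.05 to -0.39), where the median of all tested genes was -0.05 and the middle of their distribution ran from -0.45 to 0.39 (quartiles). The repeat pairs of Treg experiment 6, Tconv experiment 5 and Tconv experiment 6 had Gbp medians of -0.08, -0.12 and 0.05. In PD1hi, the library of experiment 6, the shallowest of all, was below the mean of experiments 3 and 5 for 10 of 10 Gbp genes, by a median of -0.63, where all tested genes had a median of -0.03. The Treg library was the deepest and the PD1hi library the shallowest, and the part of depth in these values was not tested. Some results are therefore also given without this Treg library, this PD1hi library or both. A gene for which no such value is given may depend on them as well.

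**Figure D2:**
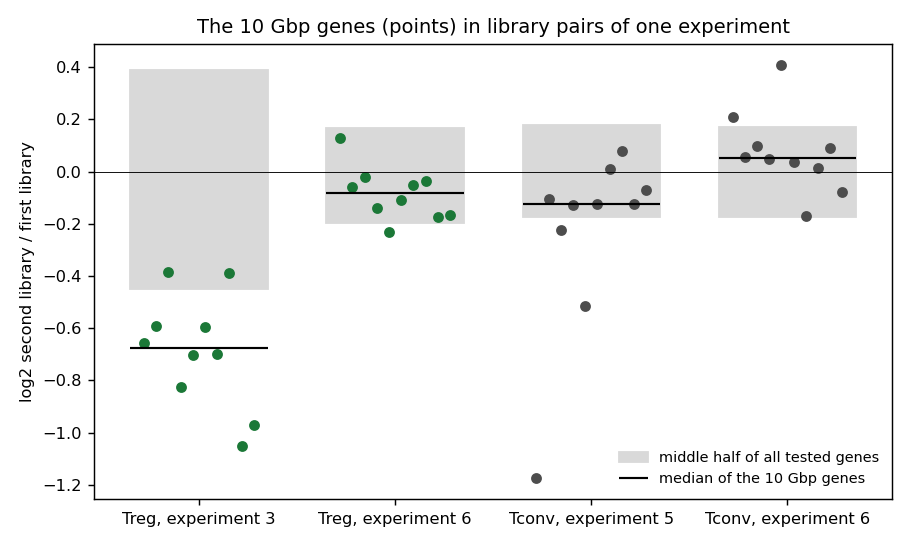
Log2 ratio of the second to the first library of each repeat pair (y axis) for the 10 Gbp genes (points, Gbp1 to Gbp10 from left to right), with their median (line) and the quartile range of all tested genes (grey). All 10 points of Treg experiment 3 lie between -1.05 and -0.39.

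All 10 Gbp genes had their highest mean in Treg, and in 9 of 10 the mean was lowest in PD1hi. The exception was Gbp1, which was lowest in Tconv. PD1hi values lay below Treg values without overlap for 10 of 10 genes, where 15.2% of all tested genes did so. Treg values lay above Tconv values without overlap for 7 of 10, where 17.9% of all tested genes did so. PD1hi values lay below Tconv values without overlap for 7 of 10, where 19.4% of all tested genes did so. These counts come from the contrasts on which the family was chosen, so nothing is read from them. In bulk libraries such as these, fewer expressing cells and less RNA per cell cannot be told apart.

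**Figure D3:**
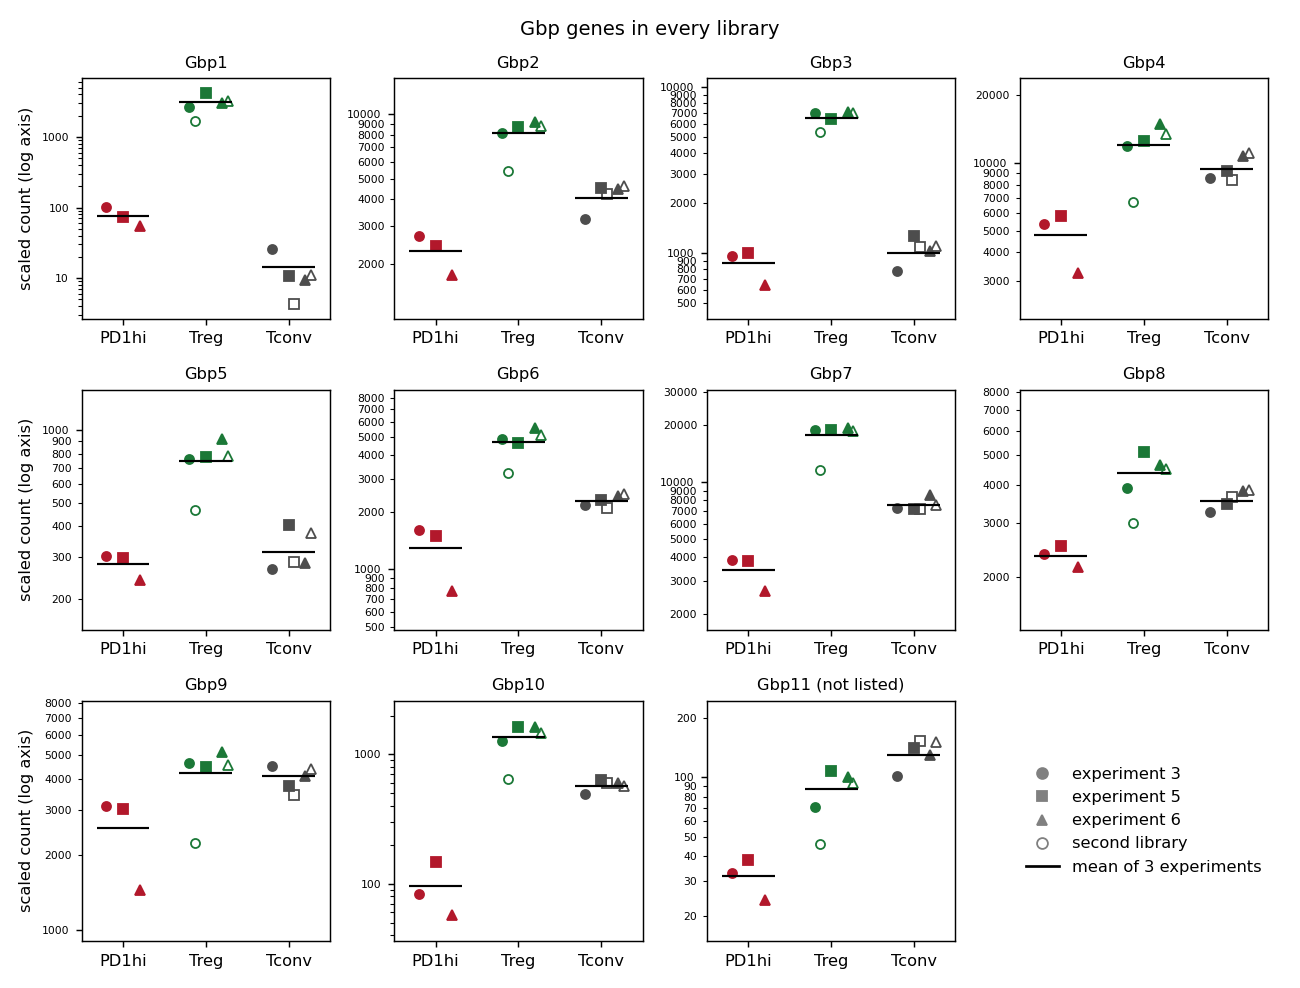
Scaled count on a log axis for each Gbp gene in PD1hi (red), Treg (green) and Tconv (grey) libraries, with experiments by symbol, second libraries open, and the mean of 3 experiments as a line. Treg means are the highest for Gbp1 to Gbp10, and for Gbp11 the Tconv mean of 129.5 is above the Treg mean of 87.9.

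The chromosome 3 genes are described first, and library values are given in the order of experiments 3, 5 and 6, with repeats side by side (Treg has 2, 1 and 2 libraries, Tconv has 1, 2 and 2). Gbp1 (ENSMUSG00000028269), a member known in the mouse for its recruitment to parasite vacuoles, had scaled counts of 101, 72.7 and 54.4 in the PD1hi libraries, 2667, 1693, 4206, 2978 and 3256 in the Treg libraries and 25.6, 10.9, 4.27, 9.47 and 11.1 in the Tconv libraries. The populations did not overlap: every Treg library was above every PD1hi library, and every PD1hi library above every Tconv library. Means were 76.2 ± 23.7 in PD1hi, 3168 ± 1014 in Treg and 14.5 ± 9.7 in Tconv. The log2 fold change was 7.80 ± 0.41 in Treg against Tconv, 2.45 ± 0.41 in PD1hi against Tconv and -5.35 ± 0.41 in PD1hi against Treg. The ratio of the Treg mean to the Tconv mean was 219. This identifier is not in GENCODE M21, so which gene these values belong to was not settled. Tconv held few reads of the gene, and the fold depends on the pseudocount: with 10 added in place of 1 it was 7.04 in Treg against Tconv and 1.85 in PD1hi against Tconv.

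Gbp3 (ENSMUSG00000028268) had scaled counts of 964, 1008 and 647 in the PD1hi libraries, 7024, 5376, 6444, 7079.6 and 6984 in the Treg libraries and 785, 1273, 1090.0, 1030.0 and 1102 in the Tconv libraries. Treg libraries stood above the other two populations, which overlapped each other. The log2 fold change was 2.72 ± 0.20 in Treg against Tconv and -2.93 ± 0.20 in PD1hi against Treg. Its size in PD1hi against Tconv was -0.22 ± 0.20, with a 95% interval from -0.65 to 0.21, and the difference was 0.30, -0.23 and -0.72 in experiments 3, 5 and 6. The sign thus differed between experiments.

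Gbp7 (ENSMUSG00000040253), which in the mouse takes part in defence against intracellular bacteria, had scaled counts of 3862, 3797 and 2645 in the PD1hi libraries, 18820.1, 11589.9, 18733, 19259 and 18594 in the Treg libraries and 7303, 7168, 7225, 8522 and 7568 in the Tconv libraries. The 3 populations did not overlap, with PD1hi lowest and Treg highest. The log2 fold change was 1.22 ± 0.16 in Treg against Tconv, -1.15 ± 0.16 in PD1hi against Tconv and -2.37 ± 0.16 in PD1hi against Treg. The second Treg library of experiment 3 was the lowest Treg library, and without it and the PD1hi library of experiment 6 these values were 1.33, -0.97 and -2.30.

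Gbp2 (ENSMUSG00000028270), which in the mouse helps to activate the Aim2 inflammasome, had scaled counts of 2679, 2426 and 1766 in the PD1hi libraries, 8212, 5452, 8689, 9212 and 8850.1 in the Treg libraries and 3249, 4531, 4215, 4447 and 4621 in the Tconv libraries. Again the order was PD1hi, Tconv, Treg from low to high with no overlap. The log2 fold change was 1.02 ± 0.19 in Treg against Tconv, -0.83 ± 0.19 in PD1hi against Tconv and -1.85 ± 0.19 in PD1hi against Treg. In PD1hi against Tconv the difference was -0.28, -0.85 and -1.36 in experiments 3, 5 and 6. Its size thus varied between experiments more than in Treg against Tconv, where it was 1.07, 0.99 and 0.99. Without the PD1hi value of experiment 6, PD1hi against Tconv was -0.65.

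Gbp5 (ENSMUSG00000040264) had scaled counts of 301, 296 and 239 in the PD1hi libraries. Counts were 764, 469, 778, 921 and 785 in the Treg libraries and 266, 407, 285, 283 and 376 in the Tconv libraries. The Gbp5 protein promotes inflammasome assembly in the mouse, but GENCODE M21 names this identifier Gbp2b, the name under which RefSeq lists Gbp1. Which gene these values belong to was not settled. Treg libraries were above all others, and PD1hi and Tconv overlapped. On the log2 scale the differences were 1.25 ± 0.19 in Treg against Tconv, -1.42 ± 0.19 in PD1hi against Treg and -0.17 ± 0.19 in PD1hi against Tconv, the last with a 95% interval from -0.59 to 0.25. As for Gbp3, this difference was above 0 in experiment 3 and below 0 in experiments 5 and 6.

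Of the chromosome 5 genes, Gbp10 (ENSMUSG00000054588) had scaled counts of 83, 148 and 57.6 in the PD1hi libraries, 1269, 648, 1618, 1629 and 1453 in the Treg libraries and 492, 633, 603, 604 and 571 in the Tconv libraries. PD1hi libraries were far below both others, and the lowest Treg library was close to the highest Tconv library. Means were 96 ± 46.3 in PD1hi, 1373 ± 361 in Treg and 566 ± 65.5 in Tconv. In log2 terms the difference was -2.65 ± 0.31 in PD1hi against Tconv, -3.89 ± 0.31 in PD1hi against Treg and 1.25 ± 0.31 in Treg against Tconv. PD1hi was thus below Tconv by more than for any other member in these libraries, and it was -2.55, -2.06 and -3.33 in experiments 3, 5 and 6.

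Gbp6 (ENSMUSG00000079362) had scaled counts of 1618, 1502 and 771 in the PD1hi libraries, 4872, 3223, 4625, 5527 and 5129 in the Treg libraries and 2188, 2307, 2115, 2422 and 2484 in the Tconv libraries. No population overlapped another, with PD1hi lowest and Treg highest. Fold changes (log2) were 1.02 ± 0.24 in Treg against Tconv, -0.89 ± 0.24 in PD1hi against Tconv and -1.91 ± 0.24 in PD1hi against Treg. In PD1hi against Tconv it was -0.43, -0.56 and -1.67 in experiments 3, 5 and 6, and without the Treg and PD1hi libraries that stood apart it was -0.55, so the PD1hi library of experiment 6 carried much of its size.

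Gbp4 (ENSMUSG00000079363), which in the mouse restrains the interferon regulator Irf7, had scaled counts of 5321, 5787 and 3253 in the PD1hi libraries, 11919, 6728, 12532, 14787 and 13422 in the Treg libraries and 8521, 9158, 8377, 10657 and 11031 in the Tconv libraries. PD1hi libraries were below all Tconv libraries, but the second Treg library of experiment 3 also fell below every Tconv library. On the log2 scale the differences were -1.01 ± 0.22 in PD1hi against Tconv, -1.35 ± 0.22 in PD1hi against Treg and 0.34 ± 0.22 in Treg against Tconv, where the averaged values overlapped. Without the second Treg library of experiment 3, Treg against Tconv was 0.46. In PD1hi against Tconv the difference was -0.68, -0.60 and -1.74 in experiments 3, 5 and 6. Without the PD1hi value of experiment 6 it was -0.75.

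Gbp8 (ENSMUSG00000034438) had scaled counts of 2379, 2513 and 2149 in the PD1hi libraries, 3909.5, 2989, 5107, 4632 and 4514 in the Treg libraries and 3245, 3453, 3643, 3803 and 3841 in the Tconv libraries. PD1hi was lowest without overlap, and Treg and Tconv overlapped. In log2 terms the difference was -0.59 ± 0.16 in PD1hi against Tconv, -0.88 ± 0.16 in PD1hi against Treg and 0.29 ± 0.16 in Treg against Tconv.

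Gbp9 (ENSMUSG00000029298) had scaled counts of 3134, 3042 and 1452 in the PD1hi libraries, 4613, 2224, 4482, 5121 and 4545 in the Treg libraries and 4489.5, 3753, 3443, 4123 and 4394 in the Tconv libraries. Treg and Tconv overlapped, and PD1hi was lowest on averaged values, although the second Treg library of experiment 3 was below the PD1hi libraries of experiments 3 and 5. Fold changes (log2) were 0.04 ± 0.26 in Treg against Tconv, -0.77 ± 0.26 in PD1hi against Tconv and -0.81 ± 0.26 in PD1hi against Treg. In PD1hi against Treg it was -0.13, -0.56 and -1.73 in experiments 3, 5 and 6. Without the PD1hi value of experiment 6 it was -0.44, and against Tconv it was -0.41, so this 1 library sets much of both values.

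Gbp11 (ENSMUSG00000092021), outside the list, had means of 31.7 ± 7.3 in PD1hi, 87.9 ± 26 in Treg and 129.5 ± 24.7 in Tconv. It was lower in PD1hi than in Tconv, with a log2 fold change of -2.003 ± 0.33 and lower than in Treg, with -1.42 ± 0.33. In Treg against Tconv it was -0.58 ± 0.33, with overlapping values.

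The members' fold changes side by side, with PD1hi against Tconv and Treg against Tconv sharing the Tconv libraries and the PD1hi and Treg libraries each entering a second contrast, had medians of -0.80 in PD1hi against Tconv, -1.88 in PD1hi against Treg and 1.12 in Treg against Tconv. The medians of all tested genes were -0.00038, -0.0088 and 0.0061. The counts past the threshold are a description of genes chosen on these contrasts. In PD1hi against Tconv 1 member was higher and 7 were lower past the threshold, where 14.2% of all tested genes were called higher and 11.9% lower, and Gbp3 and Gbp5 did not pass. Without the Tconv value of experiment 6 the calls were 5, since Gbp6, Gbp8 and Gbp9 no longer passed. With the experiment as a block they were 7, since Gbp9 did not pass. Gbp9 lost this call in 11 of the 21 alternatives run. In PD1hi against Treg 0 were higher and 9 lower, where 8.16% of all tested genes were called higher and 8.39% lower, and Gbp9 did not pass. In Treg against Tconv 7 were higher and 0 lower, where 8.73% of all tested genes were called higher and 5.66% lower, and Gbp4, Gbp8 and Gbp9 did not pass. With libraries set to equal totals the median of all genes moved by 0.14, 0.08 and 0.07 in these contrasts, and of the called genes 65.5%, 56.0% and 66.5% were then higher, against 54.4%, 49.3% and 60.7%. No Gbp fold change turned its sign under that scaling.

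**Figure D4:**
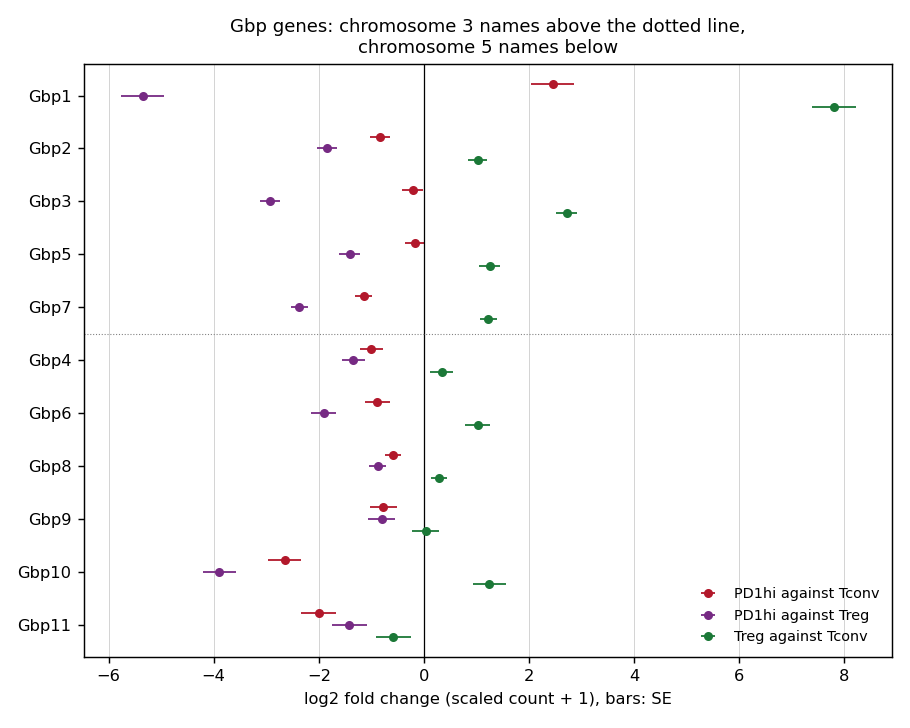
Log2 fold change of each Gbp gene on log2(scaled count + 1), with SE bars, in PD1hi against Tconv (red), PD1hi against Treg (purple) and Treg against Tconv (green). PD1hi against Treg lies below 0 for all genes shown, and Gbp1 is the 1 gene above 0 in PD1hi against Tconv, at 2.45.

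By chromosome of the named gene, the Treg against Tconv fold change had a median of 1.25 (1.02 to 7.80) over the 5 genes of chromosome 3 and of 0.34 (0.04 to 1.25) over the 5 genes of chromosome 5. For PD1hi against Tconv the medians were -0.22 (-1.15 to 2.45) and -0.89 (-2.65 to -0.59), so the chromosome 3 genes went both ways. Gbp1 was placed here by its older RefSeq name, since RefSeq lists Gbp1 under Gbp2b. The placement has limits, because 4 of the 10 identifiers are paired otherwise in GENCODE M21: those of Gbp1 and Gbp10 are not in that release, that of Gbp5 is named Gbp2b, and that of Gbp6 is named Gm43302 and overlaps Gbp6 and Gbp10. By that release the Gbp5 values belong to Gbp2b, the name under which RefSeq lists Gbp1, and the Gbp1 values to no gene listed. Gbp4, Gbp8 and Gbp9 overlap one another there on the same strand. How the counting treated reads of such near-identical or overlapping genes is not given, so values of single genes in these groups are uncertain.

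Across the 9 averaged values the 10 genes varied together in most pairs, with Pearson's r between members from 0.25 (Gbp1 with Gbp9) to 0.99 (Gbp3 with Gbp5) and a median of 0.90 over 45 pairs. The points share libraries, experiments and size factors, and 3 of them are Treg, so the r describes the group pattern. Gbp1 and Gbp9 had the lowest median r with the other members, 0.67 and 0.76. The mean centred profile of the family was -0.75, -0.72 and -1.39 in PD1hi, 1.03, 1.46 and 1.48 in Treg and -0.40, -0.41 and -0.30 in Tconv, for experiments 3, 5 and 6 on the log2 scale. It was lowest in PD1hi of experiment 6 and, among Treg values, in experiment 3.

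The 5 genes outside the family whose 9 values were most like this profile were Iigp1 (r = 0.990), Gm8989 (0.988), Tmem154 (0.986), Fam3c (0.983) and Gm12250 (0.982). Iigp1 and Gm12250 are IRGs, and Iigp1 is described with them. Gm12250 averaged 947 ± 164 in PD1hi, 4293 ± 469.6 in Treg and 1745 ± 219 in Tconv. Gm8989 was low, with means of 17.2 ± 7.41 in PD1hi, 117 ± 15.9 in Treg and 24.3 ± 4.06 in Tconv. Tmem154 is a membrane protein gene and Fam3c a secreted protein gene. All 5 genes were picked for likeness to a profile that is highest in Treg, so their highest means in Treg follow from that choice. Tmem154 averaged 3158 ± 645 in PD1hi, 7261 ± 551 in Treg and 4150.3 ± 23.2 in Tconv. Fam3c averaged 1439.6 ± 171 in PD1hi, 4409.8 ± 512 in Treg and 2176 ± 261 in Tconv.

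The other genes of the pathway came from 4 lists of 92 symbols, of which 7 were not analysed here and 81 were tested. The lists were drawn up with earlier results of these data known. Over the 4 lists, 12 genes were higher and 23 lower past the threshold in PD1hi against Tconv, 7 were higher and 30 lower in PD1hi against Treg, and 18 were higher and 4 lower in Treg against Tconv. Of all tested genes, 14.2% were called higher and 11.9% lower in PD1hi against Tconv, 8.16% higher and 8.39% lower in PD1hi against Treg, and 8.73% higher and 5.66% lower in Treg against Tconv. The shares of genes called higher in both PD1hi contrasts, and lower in Treg against Tconv, were near these and are not read as results about the lists. The list medians were -0.22, -0.48 and 0.18 on the log2 scale. Without the Treg and PD1hi libraries that stood apart the calls were 39 in PD1hi against Tconv, 39 in PD1hi against Treg and 29 in Treg against Tconv, in place of 35, 37 and 22. In that Treg library 13 of the 16 IRG list genes tested and 11 of the 16 signalling genes were below the first library of the experiment. Their median log2 ratios were -0.40 and -0.26. So were 14 of 24 other induced genes and 12 of 25 partner genes, with medians of -0.16 and 0.0033.

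IRGs act with GBPs on pathogen vacuoles. The IRG list also holds Irgq and the very large GTPase Gvin1, for which this is not claimed. Of its 16 tested genes, 10 fell and 1 rose in PD1hi against Tconv, and 14 fell and 0 rose in PD1hi against Treg. In Treg against Tconv 7 rose and 0 fell. The shares over all tested genes were 11.9% lower and 14.2% higher in PD1hi against Tconv. They were 8.39% lower and 8.16% higher in PD1hi against Treg, and 5.66% lower and 8.73% higher in Treg against Tconv. The 1 rise in PD1hi against Tconv was below its share and is not read as a result about the list. Iigp1, an effector IRG, averaged 2469.7 ± 922 in PD1hi, 11074 ± 1651 in Treg and 3253 ± 338 in Tconv, a log2 fold change of 1.76 ± 0.25 (adjusted p = 0.000523) in Treg against Tconv and -2.23 ± 0.25 (adjusted p = 6.58e-05) in PD1hi against Treg. Irgm2, a regulatory IRG, fell by 1.51 ± 0.23 (adjusted p = 0.000499) in PD1hi against Tconv. Tgtp1 averaged 591 ± 15.8 in PD1hi, 2321 ± 551 in Treg and 2764 ± 281 in Tconv, and its fold change in PD1hi against Tconv was -2.22 ± 0.17 (adjusted p = 2.93e-06). Tgtp1 has a near-identical neighbour, Tgtp2, so the values of each gene of the pair are uncertain. Gvin1, a very large GTPase, changed by 1.80 ± 0.21 (adjusted p = 9.96e-05) in Treg against Tconv and -2.77 ± 0.21 (adjusted p = 2.42e-06) in PD1hi against Treg. F830016B08Rik was the 1 IRG list gene that rose in PD1hi against Tconv, by 1.94 ± 0.31 (adjusted p = 0.000611), and it also rose in Treg against Tconv, by 3.22 ± 0.31 (adjusted p = 2.53e-05). Gm4951 averaged 79.8 ± 18.9 in PD1hi, 1095 ± 311 in Treg and 175 ± 91 in Tconv, and its fold change in Treg against Tconv was 2.76 ± 0.39 (adjusted p = 0.000501). 9930111J21Rik1 fell in PD1hi against Tconv, a fold change of -1.40 ± 0.29 (adjusted p = 0.0032).

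Of 16 signalling genes tested, 3 rose and 7 fell in PD1hi against Tconv, 4 rose and 6 fell in PD1hi against Treg, and 2 rose and 3 fell in Treg against Tconv. Over all tested genes 14.2% were called higher and 11.9% lower in PD1hi against Tconv, 8.16% and 8.39% in PD1hi against Treg, and 8.73% and 5.66% in Treg against Tconv. The counts that rose in PD1hi against Tconv and in Treg against Tconv were near these shares and are not read as a result. Ifng, the ligand, averaged 1757 ± 319.5 in PD1hi, 116 ± 61.4 in Treg and 612 ± 225 in Tconv. It rose in PD1hi against Treg by 4.03 ± 0.36 (adjusted p = 1.03e-05) and in PD1hi against Tconv by 1.57 ± 0.36 (adjusted p = 0.00675), and fell in Treg against Tconv, a fold change of -2.47 ± 0.36 (adjusted p = 0.00062). Ifng was thus lowest in Treg, where the means of the 10 Gbp genes were highest.

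Both receptor chains fell in PD1hi. Ifngr1, the ligand-binding chain, averaged 870.3 ± 269.9 in PD1hi, 16637 ± 2418 in Treg and 4701 ± 487 in Tconv. Its log2 fold change was -4.29 ± 0.21 (adjusted p = 8.21e-08) in PD1hi against Treg, -2.48 ± 0.21 (adjusted p = 4.95e-06) in PD1hi against Tconv and 1.82 ± 0.21 (adjusted p = 9.88e-05) in Treg against Tconv. Ifngr2, the second chain, averaged 173 ± 50.8 in PD1hi, 928 ± 68.3 in Treg and 1320.0 ± 19.3 in Tconv, and its fold change was -2.97 ± 0.20 (adjusted p = 1.13e-06) in PD1hi against Tconv and -2.46 ± 0.20 (adjusted p = 5.58e-06) in PD1hi against Treg. In Treg against Tconv it was -0.51 ± 0.20 (adjusted p = 0.133) and did not pass in the main fit. The averaged Ifngr2 values of these populations did not overlap, at 852 to 985 in Treg and 1298 to 1334 in Tconv. This fold change passed in 5 of the 21 alternatives run, among them the pairwise fit (adjusted p = 0.0135), and did not pass in the others.

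Among the transducers, Irf1 averaged 5742 ± 226 in PD1hi, 10118 ± 709.6 in Treg and 8824 ± 392 in Tconv and its fold change was -0.62 ± 0.11 (adjusted p = 0.00153) in PD1hi against Tconv and -0.82 ± 0.11 (adjusted p = 0.000312) in PD1hi against Treg, and 0.20 ± 0.11 (adjusted p = 0.328) in Treg against Tconv, which did not pass. Irf9, a subunit of a complex that binds the ISRE, fell in PD1hi against Tconv and Treg, with fold changes of -0.92 ± 0.12 (adjusted p = 0.000146) and -0.96 ± 0.12 (adjusted p = 0.000151). Jak2 rose in PD1hi against Tconv by 1.46 ± 0.23 (adjusted p = 0.000573). Irf8, a partner of Irf1 in myeloid and B cells, rose in Treg against Tconv by 1.69 ± 0.22 (adjusted p = 0.000289). Ptpn11, a phosphatase, rose in PD1hi against Tconv by 2.95 ± 0.13 (adjusted p = 7.81e-08) and against Treg by 3.49 ± 0.13 (adjusted p = 1.15e-08). Its partner in the family of phosphatases, Ptpn6, fell in Treg against Tconv, a fold change of -0.83 ± 0.13 (adjusted p = 0.00122), and rose in PD1hi against Treg by 0.89 ± 0.13 (adjusted p = 0.000541).

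**Figure D5:**
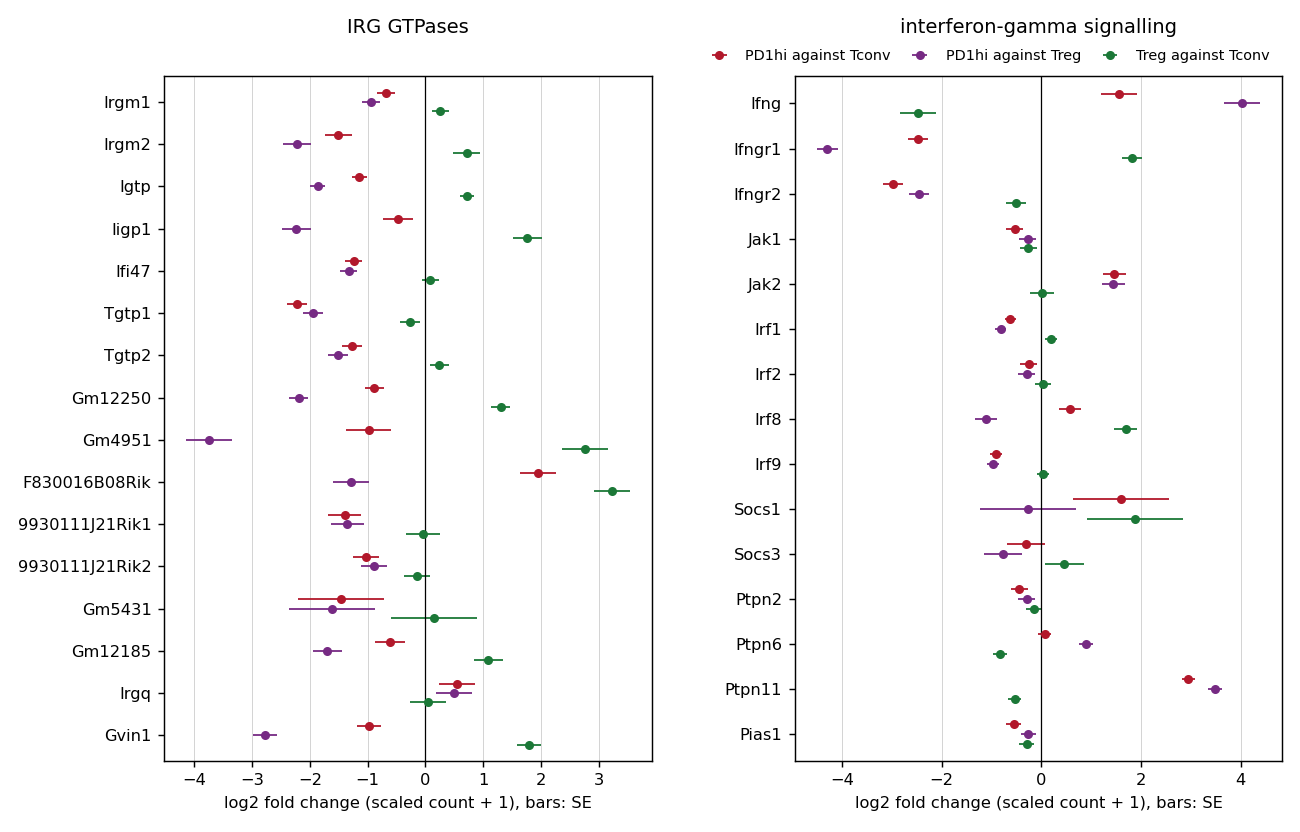
Log2 fold change on log2(scaled count + 1), with SE bars, of the 16 tested genes of the IRG list (left). On the right are 15 of the 16 tested interferon-gamma signalling genes. Colours mark PD1hi against Tconv (red), PD1hi against Treg (purple) and Treg against Tconv (green). PD1hi against Treg lies below 0 for 15 of the 16 IRG list genes, while in the signalling list Ifngr1 is at -4.29 and Ifng at 4.03.

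Of 24 other interferon-gamma induced genes tested, 2 rose and 3 fell in PD1hi against Tconv, 1 rose and 8 fell in PD1hi against Treg, and 4 rose and 0 fell in Treg against Tconv. Set against 14.2% higher and 11.9% lower among all tested genes, the rises in PD1hi against Tconv were below the background and the falls near it, so neither is read as a result about the list. In PD1hi against Treg all genes had 8.16% higher and 8.39% lower, and in Treg against Tconv 8.73% higher and 5.66% lower. The 1 rise in PD1hi against Treg was below its share and is not read as a result either. Cxcl10, a chemokine, averaged 727 ± 179 in PD1hi, 149.8 ± 22.1 in Treg and 41.8 ± 12.7 in Tconv. It rose in PD1hi, by 4.10 ± 0.29 (adjusted p = 1.46e-06) against Tconv and 2.25 ± 0.29 (adjusted p = 0.000185) against Treg. Serpina3g, a cathepsin inhibitor, averaged 2767 ± 197 in PD1hi, 7325 ± 667 in Treg and 1263 ± 413 in Tconv, a fold change of 2.58 ± 0.19 (adjusted p = 4.46e-06) in Treg against Tconv and 1.18 ± 0.19 (adjusted p = 0.000714) in PD1hi against Tconv. Icam1, an adhesion molecule, rose in Treg against Tconv by 1.04 ± 0.17 (adjusted p = 0.00126). Ifi35 fell in PD1hi against Tconv, a fold change of -0.64 ± 0.12 (adjusted p = 0.00209), and Dtx3l, a ubiquitin ligase, fell in PD1hi against Treg, a fold change of -0.88 ± 0.16 (adjusted p = 0.00229). Psmb10, an immunoproteasome subunit, had -0.51 ± 0.15 (adjusted p = 0.0287) in PD1hi against Tconv and Xaf1 had -0.49 ± 0.14 (adjusted p = 0.0233). Both calls were lost under equal totals (adjusted p = 0.149 and 0.122) and in the pairwise fit (0.05265 and 0.05087). Leaving out the Tconv value of experiment 5 alone also ended both (adjusted p = 0.11 and 0.0533). So did leaving out that of experiment 6, or the PD1hi value of experiment 3 or 5. Xaf1 also lost its call without the Tconv value of experiment 3 (adjusted p = 0.0649).

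Of the 25 tested genes whose products are known to act with GBPs, 6 rose and 3 fell in PD1hi against Tconv, 2 rose and 2 fell in PD1hi against Treg, and 5 rose and 1 fell in Treg against Tconv. The share of all tested genes called lower in PD1hi against Tconv was 11.9%, and those called higher and lower in PD1hi against Treg were 8.16% and 8.39%, so these 3 counts were near the background and are not read as a result about the list. Shares called higher were 14.2% in PD1hi against Tconv and 8.73% in Treg against Tconv. In Treg against Tconv 5.66% were called lower, so the 1 fall there was also near the background and is not read as a result. Casp4, the mouse caspase-11 of the noncanonical inflammasome, rose in PD1hi against Tconv by 2.35 ± 0.14 (adjusted p = 3.77e-07) and in Treg against Tconv by 0.86 ± 0.14 (adjusted p = 0.00111). Casp1 rose in PD1hi against Tconv by 1.82 ± 0.15 (adjusted p = 3.9e-06). Gabarapl1, an autophagy protein, rose by 3.01 ± 0.25 (adjusted p = 4.95e-06) in PD1hi against Tconv and 2.64 ± 0.25 (adjusted p = 2.49e-05) in Treg against Tconv. Fntb, the farnesyltransferase subunit needed to lipidate some GBPs, fell in PD1hi against Tconv, a fold change of -1.85 ± 0.17 (adjusted p = 8.53e-06), and in Treg against Tconv, a fold change of -1.33 ± 0.17 (adjusted p = 0.000215). Il18, a cytokine that inflammasomes mature, rose in PD1hi against Tconv by 1.96 ± 0.42 (adjusted p = 0.00443) and in Treg against Tconv by 2.83 ± 0.42 (adjusted p = 0.000692). Rnf213, a ubiquitin ligase, fell in PD1hi against Tconv, a fold change of -0.90 ± 0.18 (adjusted p = 0.0027). Traf6, another, had -0.71 ± 0.20 (adjusted p = 0.0177) there, a call lost without the Tconv value of experiment 3 (adjusted p = 0.0577) or 6 (0.0646).

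Markers of other cells that could be in the sorts, such as myeloid and B cells, which also express Gbp genes, moved with the populations. Over 14 myeloid and dendritic markers measured of 15 listed, the summed scaled count was 4607 to 5773 in PD1hi, 7859 to 11512 in Treg and 2246 to 6688 in Tconv, over the 3 averaged values of each population, as for all sums here. Cd74, an antigen presentation gene, made up 55.4% of the sum of means in PD1hi, 76.4% in Treg and 49.3% in Tconv, with means of 2920.3, 7356 and 2027. Of the 14 markers, 6 had a higher and 8 a lower mean in Treg than in Tconv. Among the lower ones, the class II gene H2-Aa averaged 214 in PD1hi, 150.0 in Treg and 280 in Tconv, H2-Ab1 averaged 196, 112 and 199 in that order, and the dendritic marker Itgax 15.1, 8.12 and 27.0. The monocyte marker Cd14 was close to 0, with means of 2.39 in PD1hi, 0.468 in Treg and 2.37 in Tconv. Over 8 B cell markers the sum was 1685 to 2289 in PD1hi, 887 to 1139 in Treg and 220 to 401 in Tconv. The CD8 T and NK sum over 7 markers was 561 to 744 in PD1hi, 363 to 591 in Treg and 1917 to 2028 in Tconv, and the plasma cell sum over 4 of 5 markers was 3508 to 6524 in PD1hi, 3786 to 7136 in Treg and 2032 to 2681 in Tconv. The erythroid and platelet sum over 5 markers was 38.4 to 69.6 in PD1hi, 40.0 to 59.2 in Treg and 13.2 to 42.6 in Tconv. No marker was at 0 in every library of a population. The part of these cells in the Gbp values was not tested.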

How the data were processed

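RNA was extracted with Trizol, depleted of ribosomal RNA and sequenced by the Ion Torrent protocol from 13 libraries, per the labels' protocols. The submitters' processing notes list HTSeq 0.5.4, Picard and limma as tools, and mm9, hg19 and GRCh37 as builds with no role given. The sources used here name no aligner and no strand setting. The authors' deposited table holds 18649 genes in the unit signal, that is counts divided by a size factor of each library with 1 added. The added 1 was subtracted to give the scaled count. Every deposited signal value then was a whole number of reads, within 0.001 reads, times a constant of its library, which gave 15971126 to 24216463 reads in genes per library.

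Repeat libraries within an experiment and population were averaged to 9 values, 3 per population. Before averaging, reads of the 4 repeat pairs were compared by chi-square over genes with at least 10 reads. The statistic over its degrees of freedom is near 1 under sampling noise alone. It was 7.768 to 9.047 for 3 pairs and 73.5 for the Treg pair of experiment 3. Pairs of different experiments had 15.43 to 66.2 without the second Treg library of experiment 3 and 72.33 to 92.73 with it. No pair was therefore counted as a single library deposited more than once. The Treg pair of experiment 3 was more unlike than any pair of different experiments that left out its second library. Genes with a mean of at least 10 were tested in R 4.3.3 by limma 3.58.1 (2-sided, trend on level) on log2(scaled count + 1), with all 3 populations in 1 fit. The pseudocount understates changes of low genes. Experiment numbers come from the titles and mark a shared experiment. Deviations from the population means correlated at -0.07 to 0.30 between populations of the same experiment, and a fit with the experiment as a block was run as an alternative. Other alternatives were pseudocounts of 0.5 and 10, minimum means of 0 and 50, equal totals, a trimmed mean scaling, single libraries as separate or as correlated samples, pairwise fits and leaving out values or libraries.

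Members, gene lists and tests were chosen with earlier results of these data known. Beside the members, the genes named were the 3 largest rises and 3 largest falls past the threshold per list and comparison, 4 signalling genes named in any case, and the 5 genes most like the mean member profile. A further gene that the rule names is not reported here. Promoters were matched by symbol to a RefSeq table of GRCm38.p6. Of the members, 4 symbols (Gbp2, Gbp3, Gbp5 and Gbp7) had a match, and Gbp2b was searched beside them.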

Additional observations from a re-analysis of the deposited data

Results flagged for a closer look

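A single library lay far from the other libraries of its population for 9 genes, by Dixon's test at 95% in groups of 5 (82 groups checked). Chance flags about 1 in 20 groups of independent values. These groups hold repeat libraries of 1 experiment, and the genes share the same libraries. That rate therefore does not apply, and the flags are a description. In 8 of the 9 genes the library was the second Treg library of experiment 3. Among the Gbp genes, this library was at 5452 for Gbp2, where the other Treg libraries were at 8212 to 9212. For Gbp7 it was at 11589.9, where the others were at 18594 to 19259. For Gbp9 it was at 2224, where the others were at 4482 to 5121. Among the other interferon-gamma pathway genes it was at 1884 for Irgm2, against 3884 to 4398 in the others, at 7252 for Iigp1, against 11197 to 12398, and at 1518 for 9930111J21Rik1, against 4217 to 5319. It was at 8522 for Irf1, against 10123 to 10692. Jak2 went the other way, at 2011 in this library and 932 to 1109 in the others. It was the deepest library, with 24216463 reads in genes, and the part of depth in these values was not tested. In Tconv, the first library of experiment 6 was at 703 for Ptpn11, where the other Tconv libraries were at 620.2 to 638.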

How the results depend on the processing

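Counts of members past the threshold are descriptions of genes chosen on these contrasts. No fold change of a Gbp gene that passed the threshold turned its sign under the 21 alternatives run. Of 693 Gbp fold changes under alternatives, Gbp11 included, 667 kept their side of the threshold, 19 lost it and 7 gained it, and of 1447 for named pathway genes 1393 kept it, 49 lost it and 5 gained it. With all 13 libraries as separate samples 3147 genes were called in Treg against Tconv, against 2039 with averaged values. Leaving out 1 value at a time gave 5 to 8 members past the threshold in PD1hi against Tconv, with 5 without the Tconv value of experiment 6. It gave 9 to 10 in PD1hi against Treg. In Treg against Tconv it gave 5 to 7, with 5 without the Treg value of experiment 6. Gbp10 lost its call in Treg against Tconv in 4 of the alternatives. With the experiment as a replicate block the members past the threshold were 7 in PD1hi against Tconv, where Gbp9 was no longer counted, 9 in PD1hi against Treg and 7 in Treg against Tconv, and no other call of a named gene changed. The causes were not tested. Without the 2 libraries that stood apart, chosen for this after seeing the data, 8 members passed in PD1hi against Tconv, 10 in PD1hi against Treg and 8 in Treg against Tconv. The planned count model on recovered reads was not run, and a trimmed mean scaling stood in for the planned scaling on reads. Low levels of Gbp1 in Tconv limit its fold change.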
